A study of Mus musculus with 9 samples.

Results

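The resistin-like genes Retnla and Retnlg and the chitinase-like genes Chil1, Chil3 and Chil4 were examined in RNA-seq of mouse bone marrow (BM)-derived Mϕs. They were chosen by their family, as the rows whose Ensembl identifiers map to these 5 symbols, out of 53379 gene identifiers in the table. The study asked how IL-6 alters gene expression in Mϕs beside IL-4, the standard inducer of alternative Mϕ activation. BM cells from wild-type C57BL/6 mice were grown with 10 ng/ml CSF-1 for 3 days. Control Mϕs then stayed in 10 ng/ml CSF-1 for 4 days, the IL-4 group also received 10 ng/ml IL-4, and the IL-6 group also received 100 ng/ml IL-6, so CSF-1 was present in all 3 groups. Doses and times are those of the labels, 1 of which names the IL-4 group by another cytokine and garbles the IL-6 dose. The methods of the study give the same values except 100 ng/ml for IL-4, and its figure legends give other cytokine doses and a shorter time. Each group has 3 libraries, numbered #1 to #3 in the labels and m1 to m3 in the column headers, which were read as the 3 mice of the design, and the age and sex of the mice are not given in the sources used here. The cells were whole cultures with no sort by surface marker.

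Resistin-like molecules are small secreted proteins rich in cysteine. Retnla encodes RELMα, also called Fizz1, a standard marker of alternatively activated mouse Mϕs, and Retnlg encodes RELMγ, a transcript of neutrophils and bone marrow. Chitinase-like proteins keep the fold of chitinases but have lost the catalytic activity: Chil3 and Chil4 encode Ym1 and Ym2, and Chil1 encodes the mouse counterpart of human CHI3L1. IL-4 signals through a receptor that contains IL-4Rα to the transcription factor Stat6, and IL-6 signals through gp130 to Stat3. Both STAT proteins bind palindromes that begin with TTC and end with GAA, with 4 bases in between preferred by Stat6 and 3 bases by other STAT proteins, and C/EBP proteins bind close to the STAT site of several Mϕ genes.

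In GENCODE M21 coordinates of GRCm38, the 2 resistin-like genes lie 28.2 kb apart on the plus strand of chromosome 16, with Retnla (ENSMUSG00000061100.3) at chr16:48842551-48844461 and Retnlg (ENSMUSG00000022651.5) at chr16:48872621-48874496. Chil3 (ENSMUSG00000040809.10) at chr3:106147554-106167564 and Chil4 (ENSMUSG00000063779.6) at chr3:106201490-106219507 lie 33.9 kb apart on the minus strand of chromosome 3. Chil1 (ENSMUSG00000064246.10) lies on the plus strand at chr1:134182176-134190181. The longest annotated transcripts of Chil3 and Chil4 were identical at 94.4% of 1538 aligned bases, those of Retnla and Retnlg at 84.5% of 587, and those of Chil1 and Chil3 at 62.8% of 1410.

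The sequences upstream of the RefSeq start of each gene (GRCm38.p6, 5′ to 3′ on the gene's strand) are shown because both neighbouring pairs have closely related promoters, while Retnla and Retnlg moved in opposite directions with IL-4 and Chil3 and Chil4 in the same direction, as the values below show. Up to 250 bases are printed, without the last 58 bases for Retnla and the last 28 for Chil4, which lie inside a GENCODE transcript. Capitals mark matches to TTCNNNGAA, TTCNNNNGAA or TTGCNNAA (a C/EBP motif), searched on both strands.
Retnla, chr16:48842359-48842550, plus strand: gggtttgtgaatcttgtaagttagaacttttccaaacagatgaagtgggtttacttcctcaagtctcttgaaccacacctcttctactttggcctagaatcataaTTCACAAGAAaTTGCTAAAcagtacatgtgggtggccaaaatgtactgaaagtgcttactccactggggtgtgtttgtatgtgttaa
Retnlg, chr16:48872358-48872607, plus strand: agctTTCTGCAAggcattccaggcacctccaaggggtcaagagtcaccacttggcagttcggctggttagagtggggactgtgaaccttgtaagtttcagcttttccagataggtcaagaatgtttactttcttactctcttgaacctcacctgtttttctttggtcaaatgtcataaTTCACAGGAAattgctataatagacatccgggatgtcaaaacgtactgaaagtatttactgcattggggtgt
Chil3, chr3:106167565-106167814, minus strand: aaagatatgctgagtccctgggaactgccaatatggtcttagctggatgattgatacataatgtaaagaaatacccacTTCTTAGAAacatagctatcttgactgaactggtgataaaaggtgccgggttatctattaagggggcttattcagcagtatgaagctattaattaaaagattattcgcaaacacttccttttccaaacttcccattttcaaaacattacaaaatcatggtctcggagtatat
Chil4, chr3:106219508-106219729, minus strand: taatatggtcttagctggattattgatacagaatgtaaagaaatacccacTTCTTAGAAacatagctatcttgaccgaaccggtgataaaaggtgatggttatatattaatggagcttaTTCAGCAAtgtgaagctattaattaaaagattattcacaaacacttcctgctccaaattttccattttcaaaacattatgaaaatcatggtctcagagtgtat
Chil1, chr1:134181906-134182155, plus strand: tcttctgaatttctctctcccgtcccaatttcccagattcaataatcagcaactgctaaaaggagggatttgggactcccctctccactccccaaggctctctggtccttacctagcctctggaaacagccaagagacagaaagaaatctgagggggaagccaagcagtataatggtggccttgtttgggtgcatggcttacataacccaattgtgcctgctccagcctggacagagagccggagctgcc

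Retnla held TTCACAAGAA, a match to TTCNNNNGAA, from −145 to −136 relative to its RefSeq start, followed by the C/EBP match TTGCTAAA from −134 to −127. Retnlg held TTCACAGGAA from −72 to −63, which in the alignment of the 250-base windows stood opposite the Retnla match with the single substitution A7G (counted from the 5′ end of the match, Retnla base first). The letters of the Retnla C/EBP match recurred in Retnlg with 1 inserted base, which ends the match there, and the only C/EBP match of Retnlg lay from −246 to −239 on the other strand. Chil3 and Chil4 held the same TTCTTAGAA, a match to TTCNNNGAA, from −172 to −164 and from −200 to −192, and Chil4 alone held a C/EBP match on the other strand from −131 to −124. No letters of these motifs were found in the Chil1 window. Within the 250 bases, the Chil3 and Chil4 windows were identical at 91.0% of 221 aligned bases and those of Retnla and Retnlg at 78.9% of 175. Of the 27025 mouse promoters of the same length in the table, 7.2% held TTCNNNGAA, 5.9% held TTCNNNNGAA and 9.6% held TTGCNNAA, so each motif by itself is common. These matches are letters in a window, and binding was not measured in these libraries.

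Values are FPKM (fragments scaled to gene length and to the depth of the library), so levels may be compared between genes, and 29988160 to 39909571 fragments lay behind each library. The cultures carried the Mϕ markers: all 10 genes of a list with Adgre1 and Csf1r were detected in each group, with a summed level of 5516.0 to 6578.8 FPKM in control, 2781.1 to 3152.6 in IL-4-treated and 5865.6 to 6471.5 in IL-6-treated Mϕs. Arg1, a target of IL-4 that served as a check of the treatment, averaged 0.577 FPKM in control and 1044.5 with IL-4, and Socs3, a target of IL-6, lay between 1.61 and 2.91 FPKM in control and between 74.7 and 85.5 with IL-6. The 9 libraries fell into a pair of sets by 14 genes of intestinal Paneth and goblet cells, which are foreign to BM cultures: they summed to 43.2 to 56.4 FPKM in the 3 control libraries and 37.2 in IL-4 #1, and to at most 0.034 FPKM in IL-4 #2 and #3 and 0.175 in the 3 IL-6 libraries. The set and the difference between IL-6 and control therefore cannot be told apart, and only the IL-4 group holds libraries of both sets.

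With IL-4, Retnla and Chil3 were each among the 3 most abundant transcripts of every library. Retnla stood at 3.93, 6.36 and 3.38 FPKM in control #1 to #3, at 13044.5, 10229.6 and 24324.8 in IL-4 #1 to #3, and at 19.7, 26.1 and 27.9 in IL-6 #1 to #3. The 3 groups did not overlap, and among all genes of its library Retnla ranked between 5493 and 7712 in control and between 1 and 3 with IL-4. Its IL-4 mean of 15866.3 ± 7459.3 FPKM (SD, n = 3) was 3482.2-fold the control mean of 4.56 ± 1.58, and IL-4 #3 held the highest level.

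Chil3 started from a far higher level, at 246.3, 394.7 and 362.7 FPKM in the control libraries. It stood at 13966.8, 15916.3 and 17926.0 FPKM in the IL-4 libraries and at 600.8, 684.1 and 705.2 in the IL-6 libraries, again with no overlap between the groups. The transcript ranked between 87 and 120 in control, 45 and 50 with IL-6, and 1 and 2 with IL-4, where it took 2.28% to 2.93% of all fragments. All 5 genes together took 0.0551% to 0.0924% of the fragments in control, 3.07% to 4.39% in IL-4-treated and 0.110% to 0.136% in IL-6-treated Mϕs.

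Chil4, the close relative of Chil3, had the lowest level of the 5 genes in every group. It was near the floor of detection in control, at 7, 3 and 2 fragments (0.0712, 0.0355 and 0.0202 FPKM), and in IL-6, at 3, 4 and 4 fragments (0.0305, 0.0435 and 0.0462 FPKM). The IL-4 libraries held 468, 400 and 613 fragments, or 4.86, 4.69 and 5.45 FPKM, well above the other groups. Of these 6 libraries, 3 lay at or under the floor of 3 fragments and the others held 4 to 7. Summed over libraries, the rate of Chil4 fragments with IL-4 was 118.2-fold that in control, with a 95% interval from 67.5 to 229.3 by the exact binomial method, which covers counting error only.

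Retnlg and Chil1 moved the other way with IL-4. Retnlg stood at 181.5, 349.7 and 320.4 FPKM in control, at 37.6, 55.4 and 158.0 with IL-4, and at 95.1, 165.5 and 195.2 with IL-6. Control and IL-4 libraries did not overlap, although IL-4 #3 lay close to control #1, and the IL-6 libraries overlapped with both other groups. Chil1 stood at 13.01, 22.7 and 20.4 FPKM in control, at 6.56, 6.95 and 7.74 with IL-4, and at 18.0, 25.4 and 27.3 with IL-6. The IL-4 libraries lay below all others, and the control and IL-6 libraries overlapped.

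**Figure D1:**
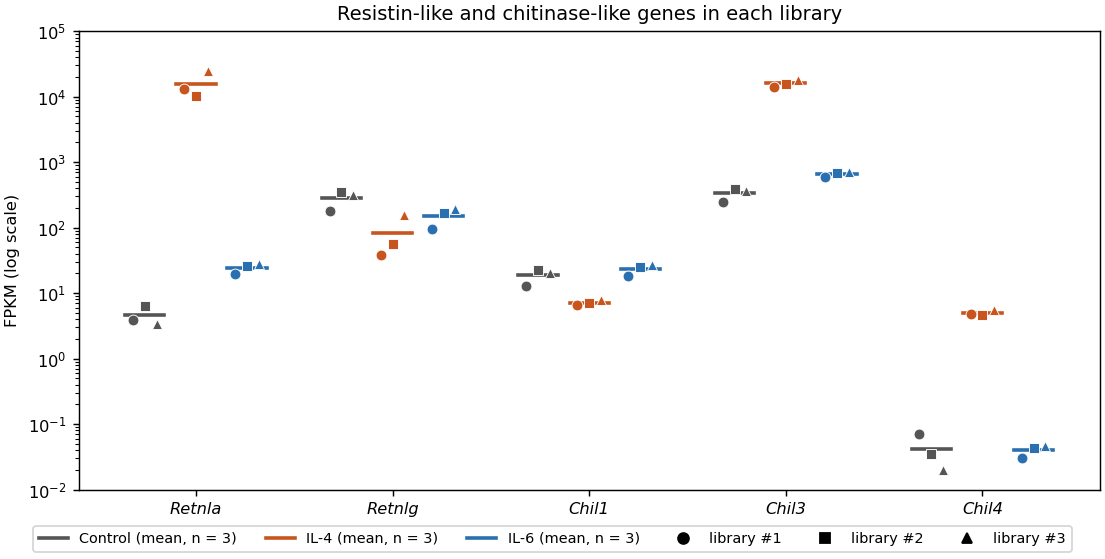
FPKM (log scale) of the 5 genes in each library, with symbols for libraries #1 to #3 and a bar for the mean of each group (n = 3). Retnla (10229.6 to 24324.8 FPKM) and Chil3 (13966.8 to 17926.0 FPKM) stand highest with IL-4, Chil4 rises from a few fragments, and Retnlg and Chil1 have their lowest means in the IL-4 group.

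The order of the 5 genes differed between groups. In control, Chil3 at 334.6 ± 78.1 FPKM and Retnlg at 283.9 ± 89.9 had overlapping ranges over libraries, although Chil3 was the higher in each of the 3, and they were followed by Chil1 at 18.7 ± 5.06, Retnla at 4.56 ± 1.58 and Chil4 at 0.0423 ± 0.0262 (SD, n = 3). With IL-4, Chil3 at 15936.4 ± 1979.7 and Retnla had overlapping ranges, with Retnla the higher in IL-4 #3 alone, and Retnlg at 83.7 ± 65.0, Chil1 at 7.09 ± 0.599 and Chil4 at 5.00 ± 0.402 followed far behind. With IL-6 the order was Chil3 at 663.4 ± 55.2 FPKM, Retnlg at 152 ± 51.5, Retnla at 24.6 ± 4.33, Chil1 at 23.6 ± 4.93 and Chil4 at 0.0401 ± 0.00839, where the ranges of Retnla and Chil1 overlapped although Retnla was the higher in each of the 3 libraries.

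The groups were compared by limma, fitted to log2(FPKM + 0.1) of the 12824 genes that averaged 0.5 FPKM or more, which all 5 members did; Chil4 passed through its IL-4 libraries. A call needed both a Benjamini-Hochberg adjusted p below 0.05 and a change of 1 or more, up or down, on the log2 scale. The 3 comparisons share libraries, so their values are given side by side. With 3 libraries against 3, the two-sided exact permutation test of a single gene cannot fall below p = 0.1. Each called difference of the 5 members reached that value with no overlap between the groups, and the genes of the other lists were not put to this test.

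With IL-4 against control, 3 of the 5 genes were called higher and 2 lower, where 5.02% of all genes tested were called higher and 8.89% lower. Retnla rose by a log2 fold change of 11.69 (SE 0.35, limma adjusted p = 1.6e-06), Chil3 by 5.59 (SE 0.20, adjusted p = 2.22e-06, 47.6-fold in mean FPKM) and Chil4 by 5.18 (SE 0.27, adjusted p = 8.922e-06). The log2 value of Chil4 depends on the pseudocount, with 2.52 at a pseudocount of 1 and 6.70 at 0.01. Chil1 fell by 1.35 on the log2 scale (SE 0.24, adjusted p = 0.00449) to 37.9% of the control mean. Retnlg fell by 1.98 (SE 0.53, adjusted p = 0.0286) to 29.5% of the control mean, and this call was the least firm: it was lost in 7 of 19 alternative fits, at adjusted p = 0.0698 when libraries were rescaled by their median ratio and between 0.0655 and 0.095 without control #2, control #3, IL-4 #1 or IL-4 #2. Without IL-4 #3, Retnlg gave −2.58 (limma adjusted p = 0.00137). The median standard error of all genes was then 0.163, beside 0.252 with all libraries, so this library held much of the spread. The median log2 fold change of all genes was −0.20 with IL-4, −0.0044 with IL-6 and 0.22 for IL-6 against IL-4, and the changes of Retnla, Chil3, Chil4 and Chil1 kept their calls after the rescaling.

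With IL-6 against control, 2 of the 5 genes were called higher and 0 lower, where 3.49% of all genes were called higher and 1.89% lower. Retnla rose by a log2 fold change of 2.44 (SE 0.35, limma adjusted p = 0.0045), which is 5.39-fold in mean FPKM. Chil3 rose by 1.01 (SE 0.20, adjusted p = 0.018), or 1.98-fold, close to the threshold on size. Chil1 differed by 0.35 (95% interval −0.19 to 0.90, adjusted p = 0.471), Retnlg by −0.91 (−2.14 to 0.32, adjusted p = 0.4) and Chil4 by −0.01 (−0.64 to 0.62, adjusted p = 0.989), and these 3 did not pass the test. For Chil4 the summed fragments were 11 with IL-6 and 12 in control, a ratio of rates of 0.933 with a 95% counting interval from 0.373 to 2.31. With the library set as a term, which rests on the 1 IL-4 library that shares the control set, neither rise was called: Retnla gave 2.17 (adjusted p = 0.172) and Chil3 gave 0.74 (adjusted p = 0.282). The Chil3 call was lost in 8 of 19 alternative fits, among them those without control #1 (0.81, adjusted p = 0.0342, under the threshold on size) or any single IL-6 library (0.97 to 1.08, adjusted p 0.0513 to 0.0866), while that of Retnla held in the other 18.

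With IL-6 against IL-4, 1 gene was called higher and 3 lower, where 13.6% of all genes were called higher and 6.82% lower. The log2 fold change of Retnla was −9.25 (limma adjusted p = 1.472e-06), that of Chil3 was −4.58 (adjusted p = 2.131e-06) and that of Chil4 was −5.18 (adjusted p = 5.298e-06). Chil1 was higher by 1.70 (SE 0.24, adjusted p = 0.00103), or 3.33-fold. Retnlg was higher by 1.07 (SE 0.53, 95% interval −0.16 to 2.30) and did not pass the test (adjusted p = 0.148), but did with the replicate block, which pairs libraries of the same number (1.07, adjusted p = 0.0395) and without IL-4 #3 (1.67, adjusted p = 0.00878).

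**Figure D2:**
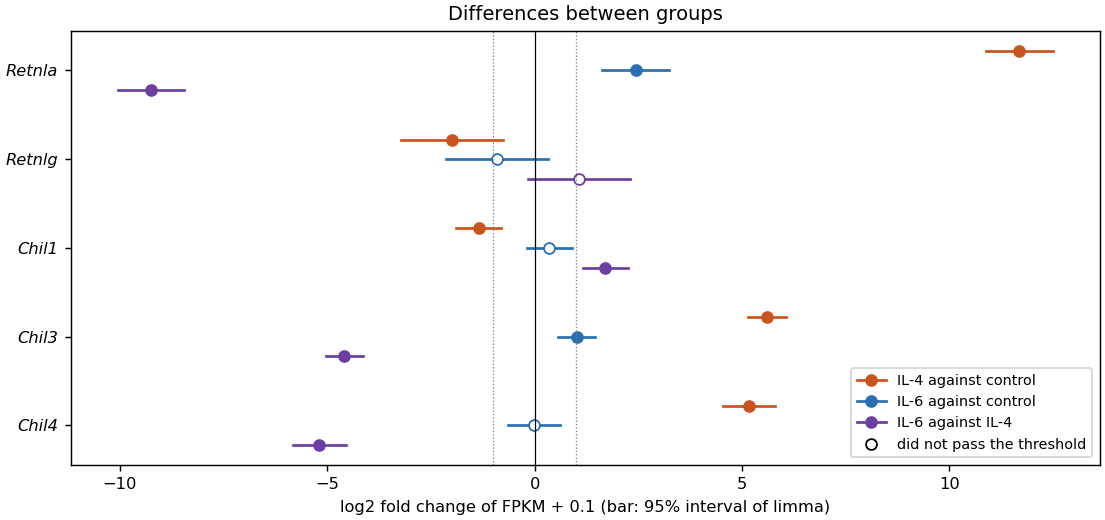
Log2 fold changes of FPKM + 0.1 for the 5 genes in 3 comparisons, with 95% intervals of limma (n = 3 libraries a group). Filled points passed the threshold on adjusted p and size, dotted lines mark a log2 fold change of 1 in either direction, and Retnla at 11.69 is the largest change with IL-4.

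Within a single set of libraries the IL-4 differences kept their direction, although the comparison with control then rests on 1 IL-4 library. Against the control mean, IL-4 #1 of the same set had 2862.9-fold the Retnla level, 41.8-fold the Chil3 level, 115-fold the Chil4 level and 0.351 of the Chil1 level. For Retnlg it had 0.132 of the control level, beside 0.295 over all IL-4 libraries. The mean of IL-4 #2 and #3 was 703.8-fold the IL-6 mean for Retnla, 25.5-fold for Chil3 and 126.5-fold for Chil4. In those libraries the IL-6 mean was 1.42-fold the IL-4 mean for Retnlg and 3.21-fold for Chil1. No within-set value exists for IL-6 against control.

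The IL-6 level of Retnla was small beside its IL-4 level. Over the 134 genes called higher with IL-4 that had at least 5000 fragments on average there, the IL-6 mean of Retnla was 0.155% of its IL-4 mean, the second lowest share after Rnase2a at 0.122% and before Ccl24 at 0.301% and Arg1 at 0.347%. The genes were chosen by their rise and level with IL-4, the denominator of the share, so this order is a description. The control mean of Retnla was 0.0287% of the IL-4 mean. For Chil3, 19th in this order, the IL-6 mean was 4.16% and the control mean 2.10% of the IL-4 mean. In fragments, Retnla had 82, 114 and 71 in control, 410, 510 and 512 with IL-6, and 266636, 185397 and 580535 with IL-4. Whether fragments of the IL-4 libraries entered the others was not tested. The IL-6 share of Retnla, at 0.155%, lay close to the lowest share of these genes, 0.122% for Rnase2a.

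The ratio of paralogs within a library does not depend on how libraries are scaled. Retnlg exceeded Retnla by 46.2-, 55.0- and 94.7-fold in the control libraries and by 4.84-, 6.34- and 7.00-fold in the IL-6 libraries, whereas with IL-4 Retnla exceeded Retnlg by 347.1-, 184.6- and 154.0-fold. The groups did not overlap in any of the 3 comparisons, with differences in mean log2 ratio of −13.70 between IL-4 and control, −3.38 between IL-6 and control and 10.33 between IL-6 and IL-4 (exact permutation p = 0.1 each, the smallest possible, adjusted p = 0.1). These 2 genes lie side by side and carry the near-identical motif described above.

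Chil3 exceeded Chil4 by 2873.6-, 3397.1- and 3287.7-fold in IL-4 #1 to #3. In the IL-6 libraries, on 3 to 4 Chil4 fragments, Chil3 exceeded Chil4 by 19678.7-, 15733.0- and 15253.6-fold. In the control libraries, on 2 to 7 Chil4 fragments, it did so by 3460.6-, 11114.4- and 17923.0-fold. The mean log2 ratio of Chil4 to Chil3 was −11.63 ± 0.13 with IL-4 and −14.03 ± 0.20 with IL-6 (SD, n = 3), with no overlap (exact permutation p = 0.1, adjusted p = 0.15). Against control the differences were 1.48 for IL-4 (p = 0.1 by the exact permutation test) and −0.93 for IL-6 (p = 0.3 by the same test). The first of these turned to −0.42 when 0.1 FPKM was added to both genes, so no direction is drawn from it.

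Sequence shared between the paralogs bears on these counts. Of all 50-base stretches of the annotated transcripts, 26.9% of those of Chil3 and 11.0% of those of Chil4 also occurred in the other gene or in the annotated gene Gm6522, whereas Retnla, Retnlg and Chil1 shared 0 such stretches with any other gene. How fragments of shared stretches were divided between Chil3 and Chil4 was not tested, and Chil4 levels are therefore uncertain beside a relative at least 2873.6-fold higher. The ratio of Chil4 to Chil3, given above, did not overlap between the IL-4 and the IL-6 libraries. It rests on 3, 4 and 4 Chil4 fragments in the IL-6 libraries, and control #1, at 3460.6-fold, lay close to the IL-4 libraries.

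Retnlg and, among other sources, Chil1 are known as transcripts of neutrophils, and markers of neutrophils and their precursors were abundant in these cultures. The summed level of 15 such markers was 5101.4, 8883.9 and 8035.9 FPKM in control, 2445.5, 2273.7 and 4100.3 with IL-4, and 8462.2, 11332.9 and 11658.4 in the IL-6 libraries. S100a8 and S100a9 made up most of this sum in every library, as in IL-4 #3 with 933.3 and 2723.7 of 4100.3 FPKM. The other markers did not all rank alike. In IL-4 #3, Csf3r was at 16.3 FPKM, beside 31.3 and 30.1 in IL-4 #1 and #2, whereas Lcn2 was at 60.9, beside 40.9 and 43.3. All 15 were detected in each group, and the defining marker Ly6g lay between 2.24 and 10.4 FPKM over the 9 libraries. With IL-4, 13 of the 15 were called lower than control, beside 8.89% of all genes tested. The list median log2 fold change was −1.54, beside −0.20 over all genes. The largest falls were those of the granule proteases Elane (−2.69, adjusted p = 0.00153) and Prtn3 (−2.38, adjusted p = 0.00271) and the antimicrobial peptide gene Camp (−2.61, adjusted p = 0.000296). With IL-6, 1 of the 15 was called higher (Mmp8, a neutrophil collagenase, by 1.38, adjusted p = 0.0112), beside 3.49% of all genes tested. All 15 were called higher with IL-6 than with IL-4, beside 13.6% of all genes. In such bulk cultures, fewer cells of a type and less RNA per cell cannot be told apart.

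Chil1 followed the sum of these markers closely in control and less closely with IL-4. Its level was 0.255%, 0.255% and 0.254% of the summed marker level in control #1 to #3, 0.268%, 0.306% and 0.189% with IL-4, and 0.213%, 0.224% and 0.235% in the IL-6 libraries. Retnlg was 3.56%, 3.94% and 3.99% of the sum in control, 1.54%, 2.44% and 3.85% with IL-4, and 1.12%, 1.46% and 1.68% in the IL-6 libraries. Relative to this sum, in which S100a8 and S100a9 weigh most, all IL-6 libraries thus had less Retnlg than any control library. That difference cannot be told apart from the library set. The Retnlg level itself did not pass the test. The part of the granulocyte content in the values of Retnlg and Chil1 was not tested, nor was its part in those of Chil3, Chil4 and Retnla.

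**Figure D3:**
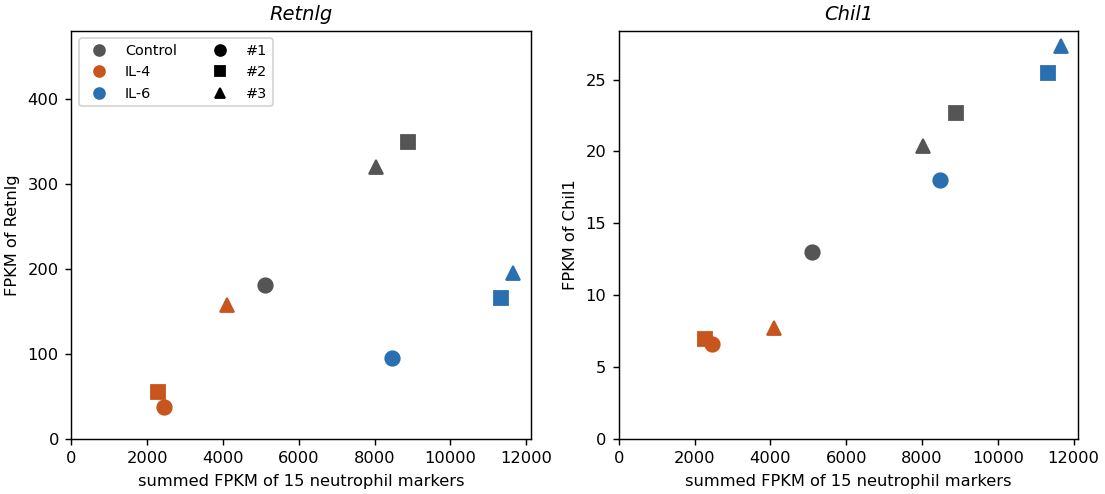
FPKM of Retnlg (left) and Chil1 (right) against the summed FPKM of 15 neutrophil and granulocyte precursor markers, with 1 point for each of the 9 libraries. The Chil1 points lie near a line through the origin in control (0.254% to 0.255% of the sum) and scatter more with IL-4 (0.189% to 0.306%). The IL-6 points of Retnlg (95.1 to 195.2 FPKM) overlap the control points (181.5 to 349.7 FPKM) in height. Relative to the marker sum the IL-6 points are lower, at 1.12% to 1.68% of it against 3.56% to 3.99%, which cannot be told apart from the library set.

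Eosinophils are another granulocyte that can express chitinase-like genes. The 6 eosinophil markers summed to 72.4 to 168.8 FPKM in control, 16.9 to 22.7 in IL-4-treated and 19.9 to 31.8 in IL-6-treated Mϕs, so the IL-4 range lay below control and overlapped that of IL-6. Among them, Siglecf had its highest mean with IL-4, at 2.75 ± 1.31 FPKM (SD, n = 3). Markers of inflammatory monocytes summed to 63.9 to 70.2 FPKM in control, 19.5 to 28.8 in IL-4-treated and 222.1 to 241.5 in IL-6-treated Mϕs. Of the 5, 4 (Ly6c2, Ccr2, Plac8 and F13a1) were called higher with IL-6, beside 3.49% of all genes tested. The 6 dendritic cell markers summed to at most 4.87 FPKM in any library, and the 12 skeletal muscle genes to at most 13.8. Their part in the levels of the 5 genes was not tested.

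The other members of both families were at or near the floor. Retn, which encodes resistin, had at most 14 fragments in any library, and Retnlb, the intestinal RELMβ, had at most 4 and was listed at 0 in the 3 IL-6 libraries. The active chitinases Chia1 and Chit1 had at most 3 and 6 fragments and Chil6 at most 2. Chil5 stood at 0.597 ± 0.150 FPKM in control, 0.210 ± 0.0136 in IL-4-treated and 0.664 ± 0.0995 in IL-6-treated Mϕs (SD, n = 3), just under the filter. In the fit without a filter it was called lower with IL-4 (−1.15, adjusted p = 0.0181) and higher with IL-6 than with IL-4 (1.30, adjusted p = 0.00793), the direction of Chil1 and opposite to its neighbours Chil3 and Chil4. Ovgp1, an oviduct glycoprotein of the same fold, lay between 0.0352 and 0.365 FPKM. The lysosomal relatives Chid1 and Ctbs lay between 2.76 and 6.17 FPKM and were not called in any comparison.

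Genes next to the members were mostly silent or not called. Within 250 kb of the start of Retnla or Retnlg, Dzip3 and Cip2a were the only other genes above the filter and neither was called in any comparison, while Trat1, Retnlb and Myh15 were below it. Around Chil3 and Chil4, Chia1, Chil6, Ovgp1 and Pifo were below the filter, Wdr77 and Atp5f1 were tested and not called, and I830077J02Rik was called lower with IL-4 (−1.16, adjusted p = 0.00565) and higher with IL-6 than with IL-4 (2.04, adjusted p = 0.000234). Around Chil1, Adipor1, an adiponectin receptor, was called lower with IL-4 (−1.26, adjusted p = 0.00015), Btg2, Ppfia4, Tmem183a and Cyb5r1 were tested and not called, and Fmod, Chit1, Mybph, Adora1, Myog and 4933406M09Rik were below the filter. No neighbour other than a member of the 5 was called higher with IL-4.

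The genes most like each member over the 9 libraries were named by Pearson's r of log2(FPKM + 0.1), which is a description over libraries of 3 groups. For Retnla they were Chil3 (r = 0.997), the adhesion molecule Bcam (0.996) and the eosinophil-type ribonuclease Rnase2a (0.995). Chil3 was most like F7, which encodes coagulation factor VII (0.999), the chemokine Ccl9 (0.998) and Bcam (0.998), and Chil4 was most like the homeobox gene Msx3 (0.998), Mettl27 (0.997) and Gm6116 (0.997). Each of these had its highest level with IL-4. Chil1 was most like Rbm38 (0.993), Lcn2 (0.985) and Cldn15 (0.981), and Lcn2, which encodes the neutrophil protein lipocalin, is among the 15 markers above. Retnlg was most like Mepce (0.989), Map1lc3b (0.985) and Vps72 (0.984), whose group means differed by less than 1.5-fold. Between the members, r was 0.978 for Chil3 and Chil4, −0.728 for Retnla and Retnlg, and 0.734 for Retnlg and Chil1.

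The IL-4 receptor and Stat6 list held 9 genes, all tested. With IL-4, 2 of them rose, the feedback inhibitors Socs1 (4.20, adjusted p = 3.357e-06) and Cish (3.95, adjusted p = 3.177e-05), and the receptor chain Il13ra1 fell by 1.66 on the log2 scale (adjusted p = 0.00695). With IL-6, 3 rose: the receptor chains Il4ra (1.81, adjusted p = 0.000215) and Il2rg (1.45, adjusted p = 0.000215) and the kinase Jak3 (1.37, adjusted p = 0.00896). Il4ra stood at 29.3 ± 1.55 FPKM in control, 17.7 ± 2.94 in IL-4-treated and 103.0 ± 5.52 in IL-6-treated Mϕs. Socs1 and Cish differed by 0.15 and 0.25 with IL-6 and did not pass the test there, so the receptor gene was high in the IL-6 group where these 2 feedback genes were near control. With the library set as a term, Il13ra1 was no longer called with IL-4, and Jak3 was no longer called with IL-6. The list medians were −0.55 with IL-4 and 0.25 with IL-6.

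Of 8 transcription factors of alternative activation, 4 rose with IL-4: Klf4 (4.22, adjusted p = 4.788e-05), Irf4 (2.83, adjusted p = 0.000426), Egr2 (2.61, adjusted p = 0.000105) and Pparg (1.38, adjusted p = 0.00254). With IL-6, Cebpb (1.42, adjusted p = 0.0394) and Klf4 (1.39, adjusted p = 0.0298) rose, and Pparg fell by 2.09 (adjusted p = 0.000944) and Egr2 by 1.06 (adjusted p = 0.0218). The 4 factors that rose with IL-4 were all lower with IL-6 than with IL-4, with log2 fold changes from −3.68 to −2.83. The factor genes Cebpa and Spi1 were called in no comparison, but Cebpa missed only the threshold on size with IL-6. It differed there by −0.81 from control (limma adjusted p = 0.0146) and by −0.86 from IL-4 (limma adjusted p = 0.00319). Kdm6b was higher with IL-6 than with IL-4 (1.93, adjusted p = 0.00837). The list medians were 1.19 with IL-4 and −0.09 with IL-6, and 0 of the 8 were called with IL-6 once the library set was a term. The count of 4 called with IL-6 ranged from 1 to 4 when single libraries were left out, with 1 without control #2, control #3 or any IL-6 library and 2 without control #1.

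Other genes of alternative activation moved with Retnla and Chil3 in the IL-4 group. Of 11 tested, 10 rose with IL-4, at a list median of 5.92, led by Arg1 (10.58, adjusted p = 1.955e-06), the checkpoint ligand Pdcd1lg2 (7.53, adjusted p = 1.6e-06) and the matrix protein Fn1 (7.14, adjusted p = 9.224e-06). The lectin Clec10a differed by −0.27 and did not pass the test. With IL-6, 3 of the 11 rose, namely Fn1 (2.64, adjusted p = 0.00411), Arg1 (2.39, adjusted p = 0.00557) and Pdcd1lg2 (1.13, adjusted p = 0.0194), and 3 fell, namely Clec10a by 2.16 (adjusted p = 0.00299), the lectin Mgl2 by 1.47 (adjusted p = 0.00316) and the eotaxin Ccl24 by 1.43 (adjusted p = 0.00972). With IL-6 the list median was 0.20, and 0 of these 6 calls held with the set as a term. The other 5 of the 11 were not called with IL-6. Retnla and Chil3 rose as Fn1, Arg1 and Pdcd1lg2 did, and their calls too were lost with the set as a term.

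Proteins reported to bind RELM or chitinase-like proteins were also examined, with 5 of 7 genes tested. Lgals3, which encodes galectin-3, averaged 1724.7 ± 374.4 FPKM in control, 3737.6 ± 1509.1 in IL-4-treated and 683.2 ± 53.2 in IL-6-treated Mϕs. It rose with IL-4 (1.07, adjusted p = 0.0264) and fell by 1.31 with IL-6 (adjusted p = 0.0275), and both calls were unsteady: the former was lost with the library set as a term, with quantile scaling, in the fit of only those 2 groups and without control #1, control #3 or IL-4 #3, and the latter with the library set as a term, with median-ratio scaling, without control #2 or #3, and without any single IL-6 library. Tmem219, Cd44, Cap1 and Tlr4 were not called in any comparison of the main fit, and Il13ra2 and Ptgdr2 were below the filter. With IL-4 the count of genes called in this list was 1 with the library set as a term, and 2 with median-ratio scaling or without IL-4 #3.

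**Figure D4:**
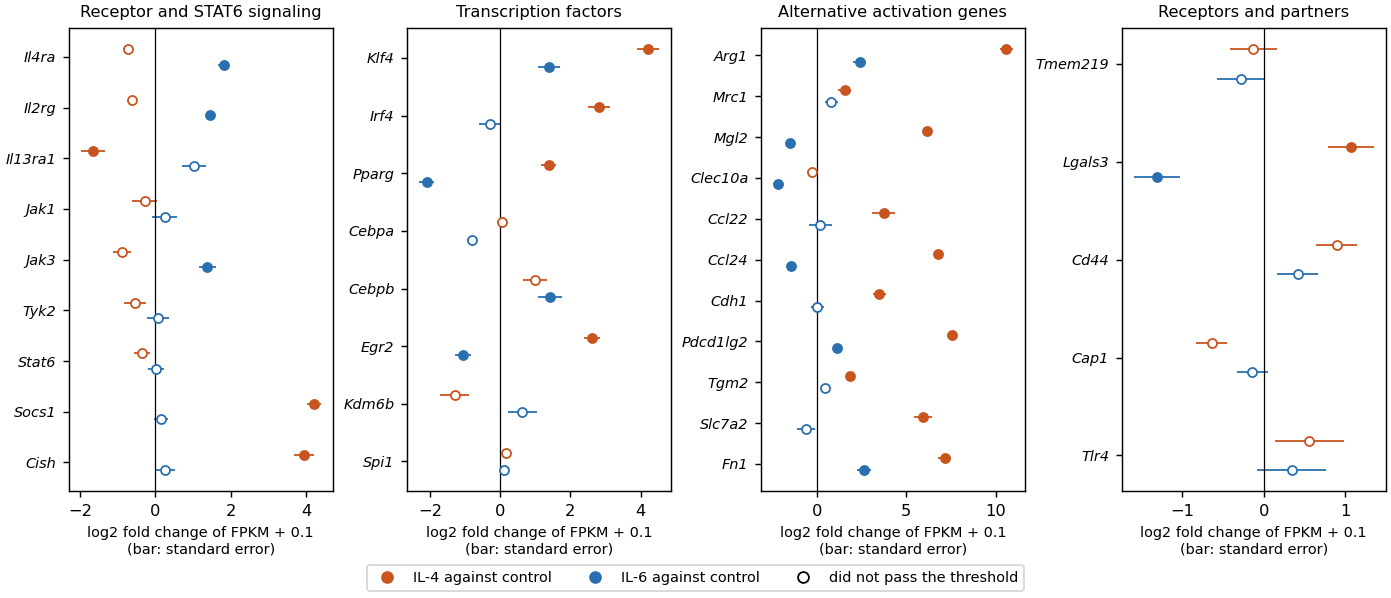
Log2 fold changes of FPKM + 0.1 with IL-4 and with IL-6 against control (n = 3 libraries a group), with standard errors, for the tested genes of 4 lists. Filled points passed the threshold; Socs1 and Cish rise with IL-4, Il4ra rises with IL-6, and 10 of 11 alternative activation genes rise with IL-4.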

How the data were processed

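RNA was sequenced from TruSeq stranded mRNA libraries on a HiSeq2500. The authors aligned reads with STAR 2.4.2a to GRCm38 and deposited FPKM from Cufflinks 2.2.1, per gene and library, with replicates not pooled. For nearly all genes the deposited FPKM were whole multiples of 1 fragment at the exon length of GENCODE M21, which leaves the tool and annotation behind the table unsettled, so fragments were recovered: 100% of the 141432 low values tested were whole within 0.05. For 2034 genes, Retnla and Retnlg among them, the length was read from the steps (tolerance 0.01). Of 53379 identifiers, 53274 had a symbol, and all 9 columns were mapped to samples. The depth of 29988160 to 39909571 fragments gives a floor of 3 fragments, which covers counting error only.

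The scale of the tests is log2(FPKM + 0.1), which understates the change of low genes. Genes averaging 0.5 FPKM or more entered limma 3.58.1, run in R 4.3.3 (3 groups in 1 model, eBayes with trend and robust options, Benjamini-Hochberg adjustment), and the fit was tested on simulated data. All adjusted p-values of genes come from this test. Values of relatives below the filter come from the same fit without it. Single values have a two-sided exact permutation test. The alternatives tried were pseudocounts of 1 and 0.01, a filter at 5 or none, median-ratio and quantile scaling, only the groups compared, the replicate block, the library set (by intestinal fragments) as a term, limma voom on fragments, adjusted p alone, and leaving out each library. The share of the IL-4 level was added after seeing the data. Python 3.11.15, numpy 2.4.6, pandas 2.3.3, scipy 1.17.1 and matplotlib 3.10.9 were used.

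The members and lists were chosen with earlier results of these data known, and no adjustment was made over a list alone. Named were all members and relatives, up to 3 genes a list, comparison and direction with the largest change (4 where only 4 were called), the 3 genes most like each member, all protein-coding neighbours within 250 kb, and Socs3 and Arg1. Of 14 alternative activation genes 13 were in the table. Promoters of all 5 members came from RefSeq for GRCm38.p6.

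Libraries with the same number may come from the same mouse, since the headers number them m1 to m3 and the design names 3 mice. Neither source says so outright. The main fit and the permutation tests did not pair them, and the replicate block, which did, was an alternative fit. Over the genes tested, r between the deviations of #1, #2 and #3 from their group means was 0.521, −0.415 and 0.0777 for the control and IL-4 pairs. It was 0.408, 0.201 and 0.166 for control paired with IL-6. For the pairs of both cytokines it was 0.281, −0.0612 and 0.153.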

Additional observations from a re-analysis of the deposited data

How the results depend on the processing

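The IL-4 calls of Retnla, Chil3 and Chil1 held in all 19 alternative fits and that of Chil4 in all 18 that could test it, since Chil4 is removed by a filter at 5 FPKM. The same genes kept their calls in all these fits for IL-6 against IL-4. The 2 members called with IL-6 against control became 1 with median-ratio or quantile scaling, 0 once the library set was a term, and 1 to 2 when single libraries were left out, and the cause was not tested. The log2 ratio of Chil4 to Chil3 with IL-4 against control turned from 1.48 to −0.42 with 0.1 FPKM added to both genes, and ranged from 0.96 to 2.15 without single libraries. With the replicate block, Retnlg passed the test for IL-6 against IL-4 (1.07, adjusted p = 0.0395), and it changed no other member's call. Quantile scaling also gave that call (1.31, adjusted p = 0.0458). The Retnlg call with IL-4 was lost with no filter (adjusted p = 0.0565) and in the fit of only those 2 groups (0.0703). The Chil3 call with IL-6 was lost with median-ratio scaling (1.01, adjusted p = 0.052), with quantile scaling (0.96, under the threshold on size) and without control #3 (1.09, adjusted p = 0.0553). Rescaling by the median ratio changed the calls of all genes with IL-4 from 644 higher and 1140 lower to 834 and 874. Depth limits Chil4 in control and IL-6 and the relatives at a few fragments.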
